A study of Mus musculus with 2 samples.

Results

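The semaphorins, plexins and neuropilins are the ligands and receptors of a guidance system, and 31 genes of this kind were described here among 55536 annotated genes. They were chosen by symbol alone: every gene named as a class 3 to class 7 semaphorin, as a plexin A, B, C or D, or as Nrp1 or Nrp2, with at least 1 protein-coding transcript in the annotation. This took in 20 semaphorins, 9 plexins and both neuropilins. The pattern matched 34 symbols in all, and the 3 left out were antisense genes at the Plxna4 locus without a coding transcript, which had at most 2 counts in either library. The measurements were total RNA-seq of left cerebral cortex tissue from female B6CASTF1/J mice (the hybrid of C57BL/6J and CAST/EiJ) at 2 months of age. They formed a single group of 2 libraries, called replicate 1 and replicate 2, each made from 300 ng of RNA, and the labels name no treatment or transgene. The labels give both tissue samples the same donor entry, so the spread between the libraries may be technical.

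Semaphorins carry a sema domain through which they bind plexins, and they act on the growth cone, on synapses and on blood vessels. Plexins are single-pass receptors whose intracellular domain switches off small GTPases of the Ras and Rap family, which loosens adhesion and collapses the cytoskeleton. Most secreted class 3 semaphorins need a neuropilin as binding subunit beside a plexin, whereas the membrane-bound classes bind plexins directly. In the cortex the system is known for axon guidance and dendrite growth during development and for control of spine and synapse number later.

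The libraries held 31196858 expected counts in replicate 1 and 32292150 in replicate 2, of which the 31 genes took 0.204% and 0.206%. Levels are in TPM, a share of all transcripts corrected for their length, and are given as mean ± SD over n = 2 libraries where not given per library. They come from the alignment-based tables, which estimate genes and transcripts from alignments, unless the read-based transcript tables, made from the reads with an index, are named. Markers of cortex were present: all 7 neuronal markers were above 1 TPM, from Gad2 at 53.5 and 51.4 TPM to Snap25 at 1348 and 1306 TPM, and all 4 upper-layer markers, from Calb1 at 73.1 and 69.0 TPM to Lamp5 at 127 and 111 TPM. Astrocyte markers (Aldh1l1 lowest, Slc1a2 highest), oligodendrocyte markers (Opalin, Mbp), precursor markers (Cspg4, Pdgfra), microglial markers (Trem2, Csf1r), endothelial markers (Kdr, Flt1), mural markers (Pdgfrb, Vtn) and markers of layers 5 and 6 (Foxp2, Crym) were all above 1 TPM in both libraries. Members of lists for neighbouring tissue were also detected: 7 of 7 striatal markers (Drd2 to Ppp1r1b), 6 of 7 meningeal markers (Lum below 1 TPM, Igf2 highest), 3 of 4 thalamic markers (Gbx2 below 1 TPM, Slc17a6 highest) and 3 of 5 of the choroid plexus (Kcne2 near 0, Ttr highest). In bulk tissue, fewer cells of a type and less RNA per cell cannot be told apart.

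All 31 genes were at 1 TPM or more in both libraries, a level reached by 58.8% of the 22028 protein-coding genes. At 10 TPM or more in both libraries stood 18 of the 31: 8 of 9 plexins, both neuropilins and 8 of 20 semaphorins. The median over plexins was 26.7 TPM in replicate 1 and 27.8 TPM in the other library, above the median of 16.6 and 15.6 TPM over the 12958 detected protein-coding genes. The median over semaphorins was 9.90 and 8.95 TPM, below that of detected coding genes, and the neuropilins had a median of 14.3 and 13.7 TPM. These medians describe the lists and were not tested. From the lowest to the highest gene the means ran from 1.55 TPM (Sema3b) to 66.8 TPM (Sema7a), and 18 of 31 genes held the same rank in both libraries.

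**Figure D1:**
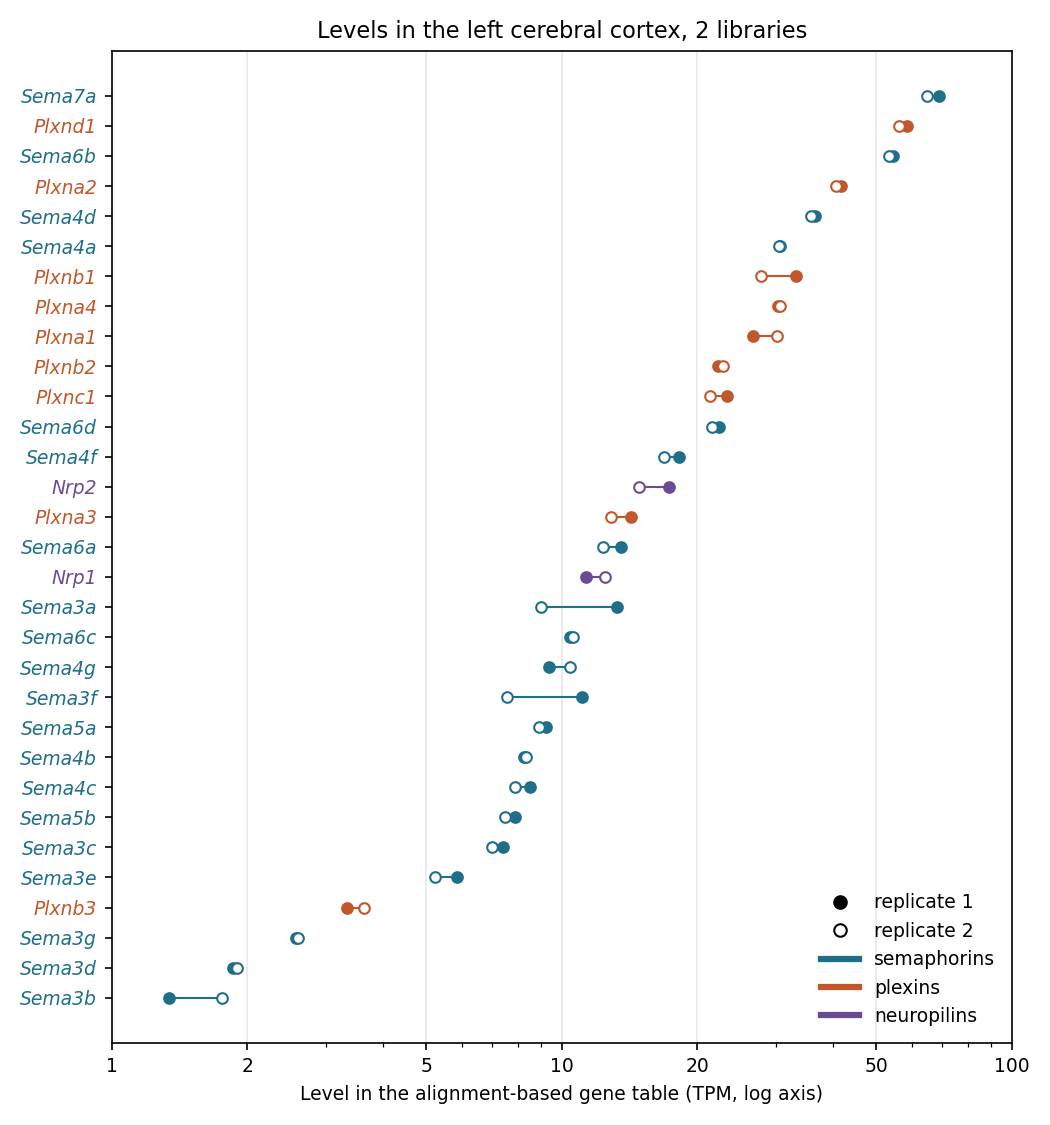
Level of each of the 31 genes in TPM (log axis), filled circles for replicate 1 and open circles for replicate 2, genes in order of their mean and coloured by type. Plexins lie in the upper part of the order except Plxnb3 at 3.34 and 3.64 TPM, and the 7 secreted class 3 semaphorins all lie in the lower part, with Sema3a and Sema3f showing wide gaps between the libraries.

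Among the receptors, Plxnd1, which binds Sema3e directly and is known from vessel patterning, was the highest plexin in the alignment-based tables. Plxnd1 (ENSMUSG00000030123.15, chr6:115954811-115995005, minus strand, mm10) was at 58.4 and 56.2 TPM (replicates 1 and 2, in that order here and below), higher than 91.4% of all protein-coding genes. Plxna2 (ENSMUSG00000026640.12, chr1:194618218-194816869, plus strand), a receptor for Sema6a, followed at 41.6 and 40.6 TPM. Both exceeded every other plexin in both libraries of these tables. Plxnb1, the receptor of Sema4d, was at 33.1 and 27.8 TPM. Plxna4, which passes on Sema3a signals beside Nrp1 and binds class 6 semaphorins, was at 30.3 and 30.6 TPM. Plxna1, a neuropilin partner that also binds Sema6d, was at 26.7 and 30.1 TPM. The range of Plxnb1 over the libraries took in both values of Plxna4, while Plxna1 stayed below Plxna4 in both. This order depended on the measure. In the read-based table of replicate 2, Plxna1 was above Plxna4, at 47.0 against 45.4 TPM. With expected counts divided by the length of the longest coding transcript, Plxnb1 (51.4 and 51.9) was below Plxna4 (79.8 and 83.8) and Plxna1 (66.8 and 76.5). Plxnb2, a receptor of class 4 semaphorins such as Sema4c, was at 22.3 and 22.8 TPM. Plxnc1, the receptor of Sema7a, was at 23.3 and 21.3 TPM, so their order differed between the libraries of the alignment-based tables. In the read-based tables Plxnc1 was above Plxnb2 in both libraries. With counts per longest coding transcript it was so too, at 52.9 and 54.3 for Plxnc1 against 40.1 and 41.9 for Plxnb2. Plxna3, which works with Nrp2 in the response to Sema3f, was at 14.3 and 12.9 TPM. Plxnb3, a receptor of Sema5a, was the lowest plexin at 3.34 and 3.64 TPM, with 384 and 454 counts. Of the 8 neighbouring pairs in the order of plexins, 6 were separated in both libraries and 2 overlapped. A pair was separated where both TPM values of the higher gene exceeded both of the lower gene, without regard to error. For Plxna1 the intervals deposited with the TPM, 24.9 to 31.3 and 27.4 to 34.6, took in both values of Plxna4. Such pairs were not counted among other genes.

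Class A plexins took 45.5% ± 1.34 of the summed plexin TPM, class B 22.6% ± 0.805, the single class D gene 22.9% ± 0.156 and the single class C gene 8.94% ± 0.382. Classes B and D did not differ beyond their spread. With expected counts divided by the length of the longest coding transcript of each gene, class A took 51.1% ± 0.777 and class B 18.7% ± 0.0255, below class D at 20.4% ± 0.656. In the read-based tables class B stood above class D, at 23.9% and 22.4% against 19.97% and 18.1%, so the order of B and D depended on how levels were estimated.

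The neuropilins were both of middle abundance. Nrp2 (ENSMUSG00000025969.15, chr1:62703285-62818695, plus strand), the binding subunit for Sema3f and Sema3c, was at 17.3 and 14.8 TPM, and Nrp1 (ENSMUSG00000025810.9, chr8:128358604-128503363, plus strand), the binding subunit for Sema3a and a co-receptor for vascular endothelial growth factor, at 11.3 and 12.5 TPM. Nrp2 was higher than Nrp1 in both libraries, and the gap was smaller in replicate 2. Their counts moved in opposite directions between the libraries: Nrp1 had 785 counts in replicate 1 and 928 in replicate 2, Nrp2 2124 and 1992.

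Nrp2 had 6 coding transcripts, the most of any of the receptors, and the forms differ in the part of the protein that spans the membrane and reaches into the cell. After a shared exon, the gene (plus strand, chromosome 1, mm10) continues either into the a tail at chr1:62815333-62815634, 302 coding bases, or into the b tail at chr1:62795709-62795986, 278 coding bases. The shared end of the preceding exon and the first 120 coding bases of each tail are shown as spliced in Nrp2-204 and Nrp2-205, because the choice between them sets the receptor's membrane span and intracellular end. Capitals mark the tail and lower case the preceding exon.
Nrp2 a tail: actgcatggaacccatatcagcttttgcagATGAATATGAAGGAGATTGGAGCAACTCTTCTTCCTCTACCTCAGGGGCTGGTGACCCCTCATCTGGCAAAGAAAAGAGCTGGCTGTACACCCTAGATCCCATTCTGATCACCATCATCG
Nrp2 b tail: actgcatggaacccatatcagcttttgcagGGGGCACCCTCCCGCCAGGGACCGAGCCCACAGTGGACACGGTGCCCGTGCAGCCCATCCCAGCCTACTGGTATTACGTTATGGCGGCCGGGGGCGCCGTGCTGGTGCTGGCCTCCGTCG
Compared position by position, 33 of these 120 bases were identical, 27.5%. The a tail was carried by 49.9% of the coding Nrp2 TPM in replicate 1 and 47.0% in replicate 2, and the b tail by 50.1% and 53.0%. The read-based tables gave 52.2% and 49.8% for the a tail, so which tail led differed between tables, with shares near equality in all 4. Nrp2-205 with the b tail was the leading transcript at 41.7% and 46.3% of Nrp2 TPM, ahead of Nrp2-204 with the a tail at 19.8% and 20.3%.

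A further pair of coding segments of Nrp2 lies between that exon and the tail, and each adds to the stretch just outside the membrane. They are shown as spliced in Nrp2-203 and Nrp2-202, with the inserted segment in capitals and the flanking exons in lower case, at chr1:62786302-62786316 (15 bases, an extension of the preceding exon) and chr1:62812534-62812584 (51 bases, a cassette exon).
Nrp2 extension: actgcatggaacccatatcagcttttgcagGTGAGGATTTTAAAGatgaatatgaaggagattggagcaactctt
Nrp2 cassette: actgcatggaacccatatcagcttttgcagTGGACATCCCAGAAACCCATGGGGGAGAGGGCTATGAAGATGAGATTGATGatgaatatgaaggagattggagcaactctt
Both keep the reading frame, since the coding length went from 2727 bases in Nrp2-204 to 2742 and 2778 bases. The extension was carried by 16.7% of coding TPM in replicate 1 and 20.7% in replicate 2, and by 18.1% and 11.5% in the read-based tables. The cassette was carried by 16.7% and 6.96%, and by 14.0% and 7.07% in the read-based tables. The cassette was thus lower in replicate 2 in both kinds of table, while the extension moved in opposite directions between them.

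Among the ligands, the membrane-bound semaphorins stood above the secreted class by median, while single genes overlapped. Sema3a, at 13.2 and 9.0 TPM, was above the membrane-bound Sema5b, at 7.87 and 7.49 TPM, in both libraries. The 13 membrane-bound genes of classes 4 to 7 had a median of 13.6 and 12.4 TPM, and 8 of them were at 10 TPM or more in both. The 7 secreted genes of class 3 had a median of 5.86 and 5.22 TPM, and 0 of the 7 reached 10 TPM in both libraries. Secreted semaphorins made up 12.7% of the summed semaphorin TPM in replicate 1 and 10.8% in replicate 2. By class the shares were 33.3% ± 0.887 for class 4, 29.9% ± 0.502 for class 6, 20.1% ± 0.105 for the single class 7 gene, 11.8% ± 1.33 for class 3 and 5.04% ± 0.0409 for class 5. The order of the leading classes depended on the length used: with counts per longest coding transcript, class 6 took 30.8% and 31.98% and class 4 27.8% and 27.99%.

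Sema7a (ENSMUSG00000038264.8, chr9:57940112-57962865, plus strand), the only semaphorin held in the membrane by a lipid anchor and a ligand of integrins as well as of Plxnc1, was the highest of the 31 genes. It was at 68.8 TPM with 4497 counts in replicate 1 and at 64.7 TPM with 4531 counts in replicate 2, above 92.8% of protein-coding genes. Of class 6, whose transmembrane members bind class A plexins, Sema6b (ENSMUSG00000001227.12, chr17:56123085-56140343, minus strand) was at 54.5 and 53.3 TPM and ranked 3 of 31 in both libraries. Sema6d was at 22.3 and 21.6 TPM, Sema6a at 13.6 and 12.4 TPM and Sema6c at 10.4 and 10.6 TPM. Within class 6 the 4 genes did not overlap in level.

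Sema6d, a ligand of Plxna1, had 8 coding transcripts that differ in a few coding segments, on the plus strand of chromosome 2 (mm10). The variable segments shown here are an extension at chr2:124660244-124660282 (39 bases), a short cassette at chr2:124660705-124660761 (57 bases) and a long cassette at chr2:124662204-124662359 (156 bases). They are shown as spliced in Sema6d-204 for the extension and Sema6d-206 for both cassettes, with the segment in capitals. Sema6d-206 and Sema6d-207 carry both cassettes, but their coding lengths are 3219 and 3207 bases. The exon of the long cassette ends later in Sema6d-206, so the first lower-case bases after its capitals belong to that exon.
Sema6d extension: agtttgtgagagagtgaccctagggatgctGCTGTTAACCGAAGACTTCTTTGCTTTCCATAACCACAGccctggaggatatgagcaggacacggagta
Sema6d short cassette: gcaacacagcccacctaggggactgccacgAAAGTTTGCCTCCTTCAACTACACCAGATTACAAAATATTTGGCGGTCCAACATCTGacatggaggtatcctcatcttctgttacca
Sema6d long cassette: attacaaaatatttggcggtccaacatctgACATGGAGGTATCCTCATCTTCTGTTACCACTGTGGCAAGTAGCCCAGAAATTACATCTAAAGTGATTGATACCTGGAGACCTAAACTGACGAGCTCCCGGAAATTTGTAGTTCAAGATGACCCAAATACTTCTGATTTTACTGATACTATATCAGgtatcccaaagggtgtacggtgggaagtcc
All 3 segments are multiples of a codon in length, and coding lengths ran from 2994 bases (Sema6d-208) to 3219 bases (Sema6d-206). The short cassette was carried by 44.2% of coding Sema6d TPM in replicate 1 and 44.0% in replicate 2, the long cassette by 34.1% and 43.5% and the extension by 22.5% and 10.9%. The read-based tables gave 35.1% and 38.1%, 32.2% and 38.7%, and 22.4% and 17.2%. In both kinds of table the long cassette was higher and the extension lower in replicate 2. The leading form, Sema6d-208, held 27.7% and 30.95% of the gene's TPM and lacks all 3 segments. These shares are model estimates from short reads, and no interval of counting error is given for them.

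**Figure D2:**
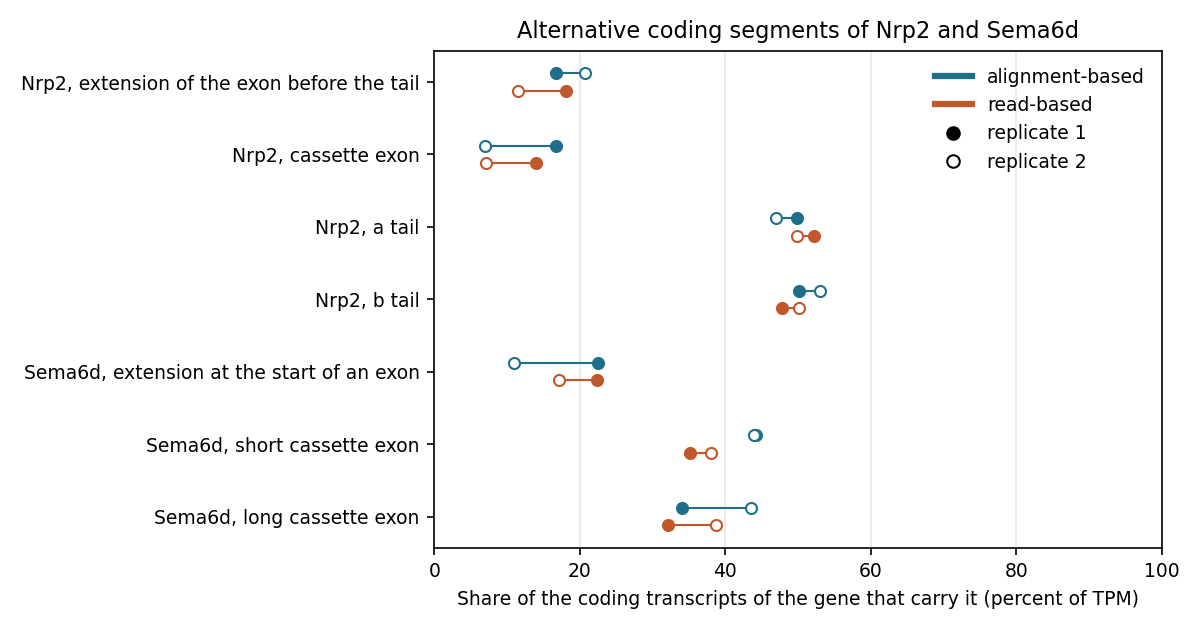
Share of the coding TPM of Nrp2 and Sema6d held by transcripts that carry each coding segment shown above, filled circles for replicate 1 and open circles for replicate 2, by kind of table. The a and b tails of Nrp2 lie near equal shares in all 4 tables, and in the alignment-based tables the cassette of Nrp2 and the extension of Sema6d differ most between the libraries.

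Of class 4, transmembrane ligands that mostly bind class B plexins, Sema4d, also a ligand of Cd72 on immune cells, was at 36.6 and 35.8 TPM. Sema4a, known also from the retina and from T cells, was at 30.5 and 30.4 TPM. Sema4f was at 18.2 and 16.8 TPM. These 3 genes were separated from each other in both libraries. The others of the class lay close together, Sema4g at 9.36 and 10.4 TPM, Sema4b at 8.25 and 8.31 TPM and Sema4c, the ligand of Plxnb2, at 8.49 and 7.89 TPM, and the ranges of Sema4b and Sema4c overlapped. The class 5 genes, which carry thrombospondin repeats beside the sema domain, were at 9.23 and 8.90 TPM (Sema5a) and at 7.87 and 7.49 TPM (Sema5b).

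Of the secreted class 3, Sema3a, the founding repellent of the vertebrate family and a ligand of Nrp1, was at 13.2 and 9.0 TPM. Sema3f, a ligand of Nrp2, was at 11.1 and 7.56 TPM. Both had the higher deposited TPM in replicate 1, and their ranges overlapped each other. Sema3c, which can attract as well as repel axons, was at 7.40 and 6.99 TPM, and Sema3e, the ligand of Plxnd1, at 5.86 and 5.22 TPM. The other 3 genes were the lowest semaphorins: Sema3g at 2.57 and 2.60 TPM, Sema3d at 1.86 and 1.90 TPM and Sema3b at 1.34 and 1.76 TPM. Both Sema3b values lay below the intervals deposited with them, 1.70 to 3.61 and 2.01 to 4.16 TPM. These overlapped the intervals of Sema3d, 1.75 to 2.62 and 1.63 to 2.44 TPM, so the order of Sema3b and Sema3d is uncertain. Sema3b rested on 69 and 86 counts, the fewest of the 31 genes. Over all 20 semaphorins, 13 of the 19 neighbouring pairs in the order were separated by the rule used for plexins, without regard to error, and 6 overlapped.

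Some of the genes lie close together in the genome (mm10). Sema3d (chr5:12383385-12588948), Sema3a (chr5:13125414-13602565), Sema3e (chr5:14025276-14256689) and Sema3c (chr5:17574281-17730268) all lie on the plus strand of chromosome 5, and their mean levels ran from 1.88 ± 0.0283 TPM for Sema3d to 11.1 ± 3.00 TPM for Sema3a. Sema3b (chr9:107597674-107609229) and Sema3f (chr9:107681500-107710475) lie near each other on the minus strand of chromosome 9, and Plxnb3 (chrX:73757090-73772514) and Plxna3 (chrX:74329066-74344689) on the plus strand of the X chromosome. In each pair the levels differed: Sema3b stood at 1.55 ± 0.297 and Sema3f at 9.33 ± 2.50 TPM, Plxnb3 at 3.49 ± 0.212 and Plxna3 at 13.6 ± 0.976 TPM. Unverified gene models overlapped several members on the same strand, and the most counts of this kind were at Plxna2. There Gm37783, Gm37674, Gm38036 and 2900035J10Rik had 170, 81, 145 and 10 counts in replicate 1 against 8456 for Plxna2. These counts were whole numbers in both libraries, so no sharing of reads between Plxna2 and these models was seen. Fractional counts on both sides were seen at Plxnc1 (2886.86 and 3019.81) and the overlapping model Gm48718 (15.14 and 22.19).

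Ligands were set beside a receptor that they are known to bind, as a ratio of TPM within each library. Sema7a stood at 2.95 and 3.03 times its receptor Plxnc1 in replicates 1 and 2, Sema5a at 2.76 and 2.45 times Plxnb3, Sema6b at 1.80 and 1.74 times Plxna4 and Sema4d at 1.11 and 1.29 times Plxnb1. In these 4 pairs the ligand was above the receptor in both libraries. Sema3e showed the reverse with the widest gap of the 11 pairs, at 0.100 and 0.0929 times Plxnd1. Sema6a reached 0.326 and 0.304 times Plxna2, Sema4c 0.381 and 0.346 times Plxnb2, Sema3c 0.428 and 0.471 times Nrp2, Sema3f 0.642 and 0.510 times Nrp2 and Sema6d 0.838 and 0.717 times Plxna1. In these 6 pairs the receptor was above the ligand in both libraries. Sema3a and Nrp1 changed order, with a ratio of 1.17 in replicate 1 and 0.721 in replicate 2. With counts per longest coding transcript, Sema3a stood at 0.952 and 0.719 times Nrp1, below it in both libraries, and the other 10 pairs kept their side.

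**Figure D3:**
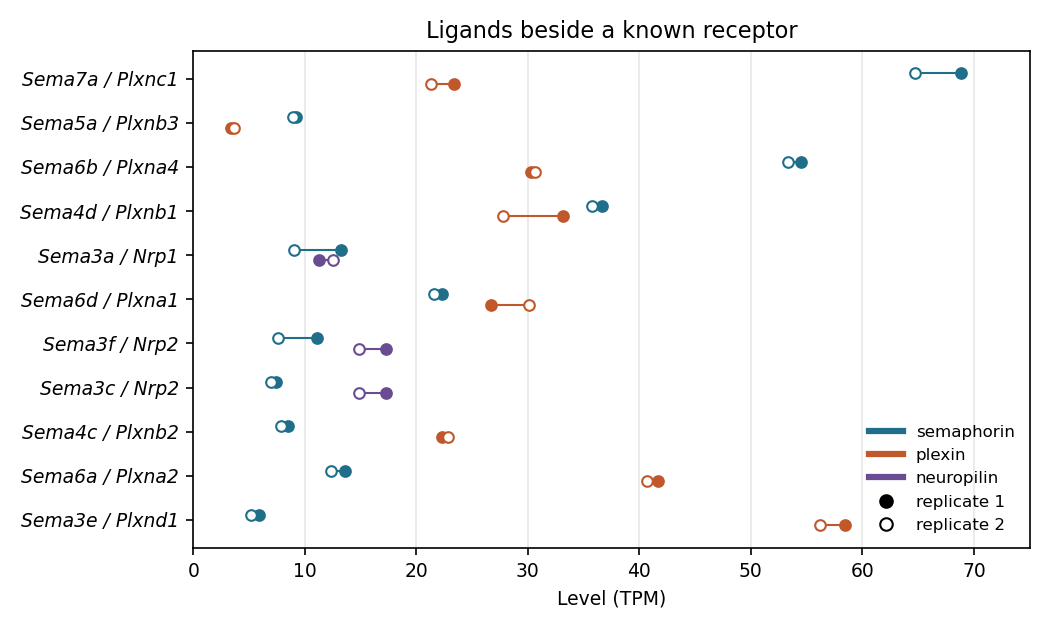
Level in TPM of a ligand (upper marker of each row) and of a receptor it binds (lower marker), filled circles for replicate 1 and open circles for replicate 2. Ligands exceed receptors in the upper 4 rows, Sema3a and Nrp1 change order between the libraries, and Plxnd1 lies farthest above its ligand Sema3e.

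The libraries were compared with each other through expected counts scaled by TMM, a factor that centres most genes on equality. A gene counted as different where the exact Clopper-Pearson 95% interval of the ratio lay wholly beyond a stated fold and its mean count was at least 10. The intervals cover only the counting error of reads taken as independent. Reads amplified by PCR and counted without molecular identifiers do not stand for separate molecules, so the intervals can be too narrow. A ratio of 1 library to 1 library also has no replicate check. Beyond 2-fold lay 0 of the 31 genes, against 0.307% of 18562 genes. Beyond a lower limit, a log2 ratio of 0.32 to either side, also lay 0 of the 31, against 1.2% of all genes. The log2 ratios of replicate 2 over replicate 1 ran from -0.29 (Sema3f) to 0.29 (Sema3b), with a median of 0.04 beside a median of 0.00 over all genes.

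The interval excluded equality in 8 of 31 genes, 25.8%, against 15.1% of all genes tested (8.17% higher and 6.89% lower in replicate 2) and 16.0% of the 12862 genes in the same range of mean count. Of the receptors, 5 were higher in replicate 2. Nrp1 had a log2 ratio of 0.22 (interval 0.08 to 0.36), Plxnb3 of 0.22 (0.02 to 0.42) and Plxna1 of 0.20 (0.14 to 0.26). Plxna4 had 0.08 (0.03 to 0.12) and Plxna2 0.05 (0.00 to 0.09). Lower in replicate 2 were 3 genes, Nrp2 with -0.11 (-0.20 to -0.02), Sema3a with -0.18 (-0.30 to -0.07) and Sema3f with -0.29 (-0.48 to -0.09). Plxna1 thus had 4509 counts in replicate 1 and 5265 in replicate 2, and Sema3f 465 and 387. These intervals leave out variation between replicates, which edgeR put at 4.08% over all genes. An interval that excludes equality shows only that the 2 libraries differed beyond the counting error of reads taken as independent.

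**Figure D4:**
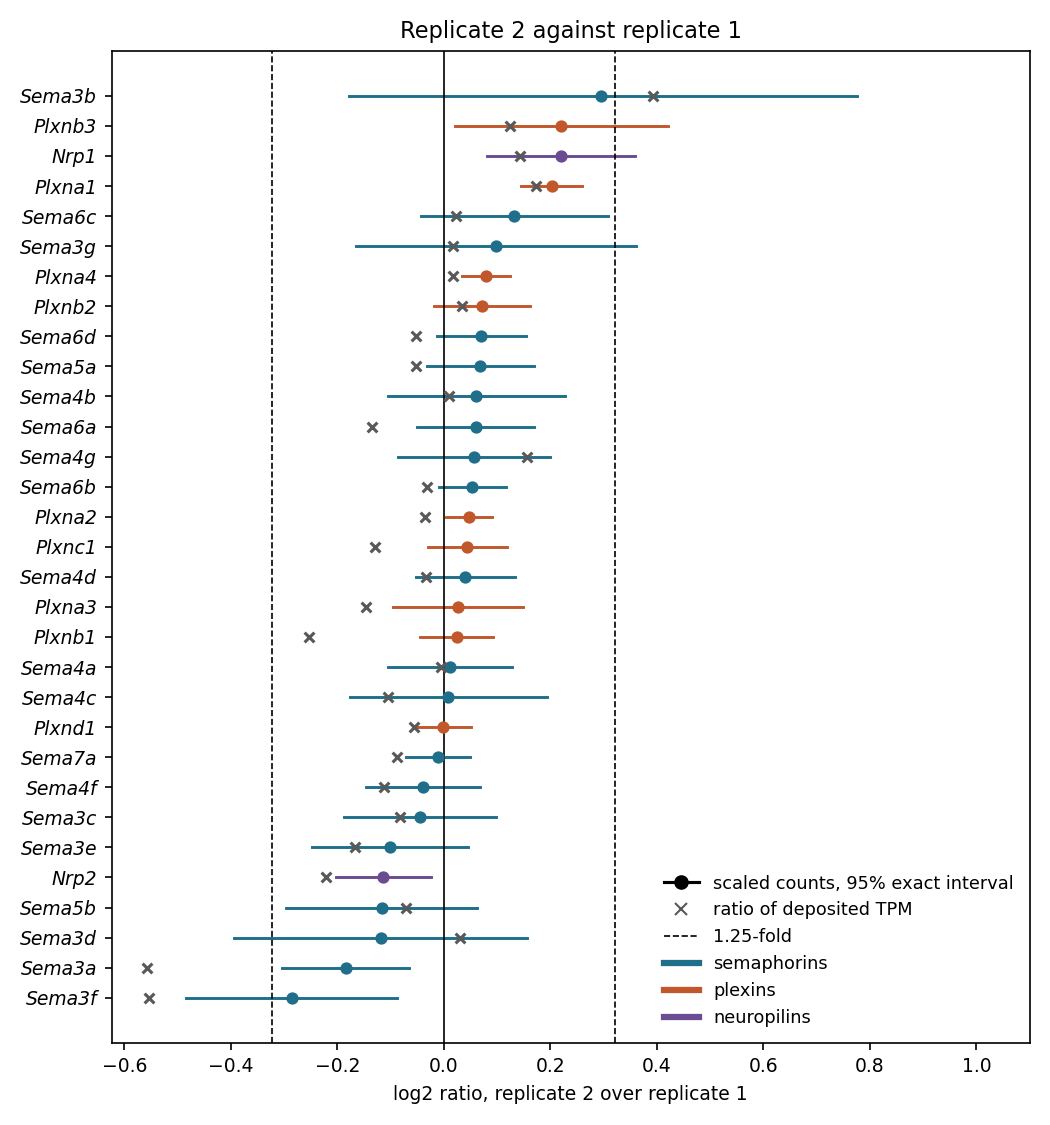
Log2 ratio of replicate 2 over replicate 1 for the 31 genes, circles for TMM-scaled counts with their exact 95% interval, crosses for the ratio of deposited TPM, dashed lines at the lower limit of -0.32 and 0.32. No interval lies wholly beyond a dashed line, and for Sema3a and Sema3f the TPM ratio of -0.56 and -0.55 lies well to the left of the count ratio.

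Marker levels of neighbouring tissue moved between the libraries too. Scaled counts of the 7 striatal markers summed to 0.867 times replicate 1 in replicate 2, with all 7 intervals below equality, and Drd2 was past the lower limit (log2 ratio -0.61). The meningeal markers summed to 0.823 times, with 4 intervals below and 1 above equality, and Igf2 was past it (-0.52). Oligodendrocyte markers summed to 1.14 times, with 4 of 6 above equality. Choroid plexus markers summed to 2.88 times through Ttr, with 136 and 816 counts, which was past both limits. No other marker of that list had an interval that excluded equality, with ratios of 1.21 for Kl and 1.18 for Clic6. The other lists summed to between 0.885 (thalamus) and 1.05 times (astrocytes), with mural cells at 0.945, layers 5 and 6 at 0.959, the upper layers at 0.972, endothelium at 0.988, microglia and neurons at 1.02 each and oligodendrocyte precursors at 1.04. The part of such differences in the ratios of Sema3a, Sema3f, Nrp2, Nrp1, Plxna1, Plxna2, Plxna4 and Plxnb3 was not tested.

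For Sema3a, Sema3f and Plxnb1 the deposited TPM and the counts gave different pictures. In part this is because TPM divides by an effective length, estimated anew in each library from the mix of transcripts. Deposited TPM was also lower in replicate 2 over all genes, with a median log2 ratio of -0.085 against -0.001 by scaled counts. Sema7a, with an effective length of 3198 bases in both libraries, had a TPM ratio of 0.941 and a scaled count ratio of 0.993. Sema3a had 1233 counts in replicate 1 and 1101 in replicate 2, a scaled count ratio of 0.880, while its effective length went from 4557 to 5584 bases and its TPM ratio was 0.680. The short transcript Sema3a-205 of 312 bases took 20.6% of the Sema3a TPM in replicate 1 and 1.78% in replicate 2, but 0.960% and 0.0700% of the counts. Sema3f had a scaled count ratio of 0.820 and an effective length of 2050 and 2339 bases, with a TPM ratio of 0.681. Plxnb1 had 3317 and 3422 counts, a scaled count ratio of 1.02, and an effective length of 4898 and 5624 bases, so its fall from 33.1 to 27.8 TPM was not seen in the counts. By TPM ratio, with the interval of the counts moved onto it, Sema3a and Sema3f passed the lower limit. The intervals deposited with their TPM overlapped between the libraries.

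Beyond the variable segments of Nrp2 and Sema6d shown above, transcripts were compared over the 31 genes, which had 226 annotated transcripts, 100 of them protein-coding, from a single one for Sema3g to 19 for Sema4a. The same transcript led in both libraries in 27 genes of the alignment-based tables and in 27 of the read-based tables. All 4 tables named the same leading transcript in 24 genes. By mean TPM, 30 of 31 genes were led by a protein-coding transcript.

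Of the receptors, Plxna4 was led by Plxna4-201 (96.1% of the gene's mean TPM), Plxna1 by Plxna1-202 (90.1%), Plxna2 by Plxna2-201 (87.5%), Plxnc1 by Plxnc1-201 (86.0%) and Nrp1 by Nrp1-201 (82.7%). Plxnd1-201 held 68.6%, Plxnb1-201 59.0%, Plxna3-201 47.6%, Plxnb2-202 43.1% and Nrp2-205 44.0%. By expected counts the leading form held more of each of these genes, 97.6% for Plxnd1-201, 95.8% for Plxnb1-201, 84.9% for Plxna3-201, 65.2% for Plxnb2-202 and 46.6% for Nrp2-205. Of the ligands, Sema7a-201 held 100%, Sema6b-201 93.1%, Sema4f-201 90.5%, Sema6c-201 42.0%, Sema6a-201 41.3% and Sema6d-208 29.3%.

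The leading transcript depended on the library or the table in 7 genes. For Sema4d it was Sema4d-204 in 3 tables, a coding form of 1249 bases with 39.4% of TPM in replicate 1, and Sema4d-201, of 4482 bases and with 41.2%, in the alignment-based table of replicate 2. By counts Sema4d-201 led in both libraries with 61.1% and 73.6%. Sema4a was led by Sema4a-201 in both alignment-based tables (38.7% and 21.2%) and by Sema4a-204 and the intron-retaining Sema4a-211 in the read-based ones. Sema4c was led by Sema4c-202 in replicate 1 (27.3%) and Sema4c-208 in replicate 2 (39.1%), and by the intron-retaining Sema4c-206 of 618 bases in both read-based tables (33.4% and 35.4%). Sema4g was led by Sema4g-201 in replicate 1 and Sema4g-203 in replicate 2 by both kinds of table. Sema3b was led by Sema3b-205 in replicate 1 (44.0%) and in the other 3 tables by Sema3b-206, which is annotated as a target of nonsense-mediated decay. Plxnb3-204, an intron-retaining form, led Plxnb3 in the read-based table of replicate 1 with 40.1% and was listed at 0 in that of replicate 2, where Plxnb3-201 led as in the alignment-based tables. Sema6a-202 led Sema6a in the read-based table of replicate 1 and Sema6a-201 in the other 3. Of these 7 genes, 4 are class 4 semaphorins.

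Protein-coding transcripts held a median of 82.9% ± 0.00516 of a gene's TPM over the 31 genes and 94.3% ± 0.290 of its expected counts. Over the 11705 detected protein-coding genes with several transcripts the medians were 85.6% ± 0.293 and 94.2% ± 0.130, so the 31 genes were close to other genes. TPM weights short transcripts up relative to counts. Plxna3 showed the widest gap, with 47.6% ± 1.93 of TPM but 84.9% of counts in its coding transcript, since transcripts under 1000 bases, mostly with retained introns, took 48.2% of its TPM and 9.16% of its counts. Plxnd1 was at 68.6% ± 0.852 of TPM and 97.6% of counts. In contrast, Sema3f (44.2% ± 1.02 of TPM, 57.4% of counts), Sema3b (49.6% ± 29.1 and 51.7%) and Plxnb3 (60.2% ± 15.5 and 63.0%) had the 3 lowest coding shares by counts. Sema3f-208, a predicted decay target of 2972 bases, held 33.4% and 33.8% of the Sema3f counts in replicates 1 and 2. For Sema3b and Plxnb3 the spread between the libraries was wide, and its cause was not tested.

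**Figure D5:**
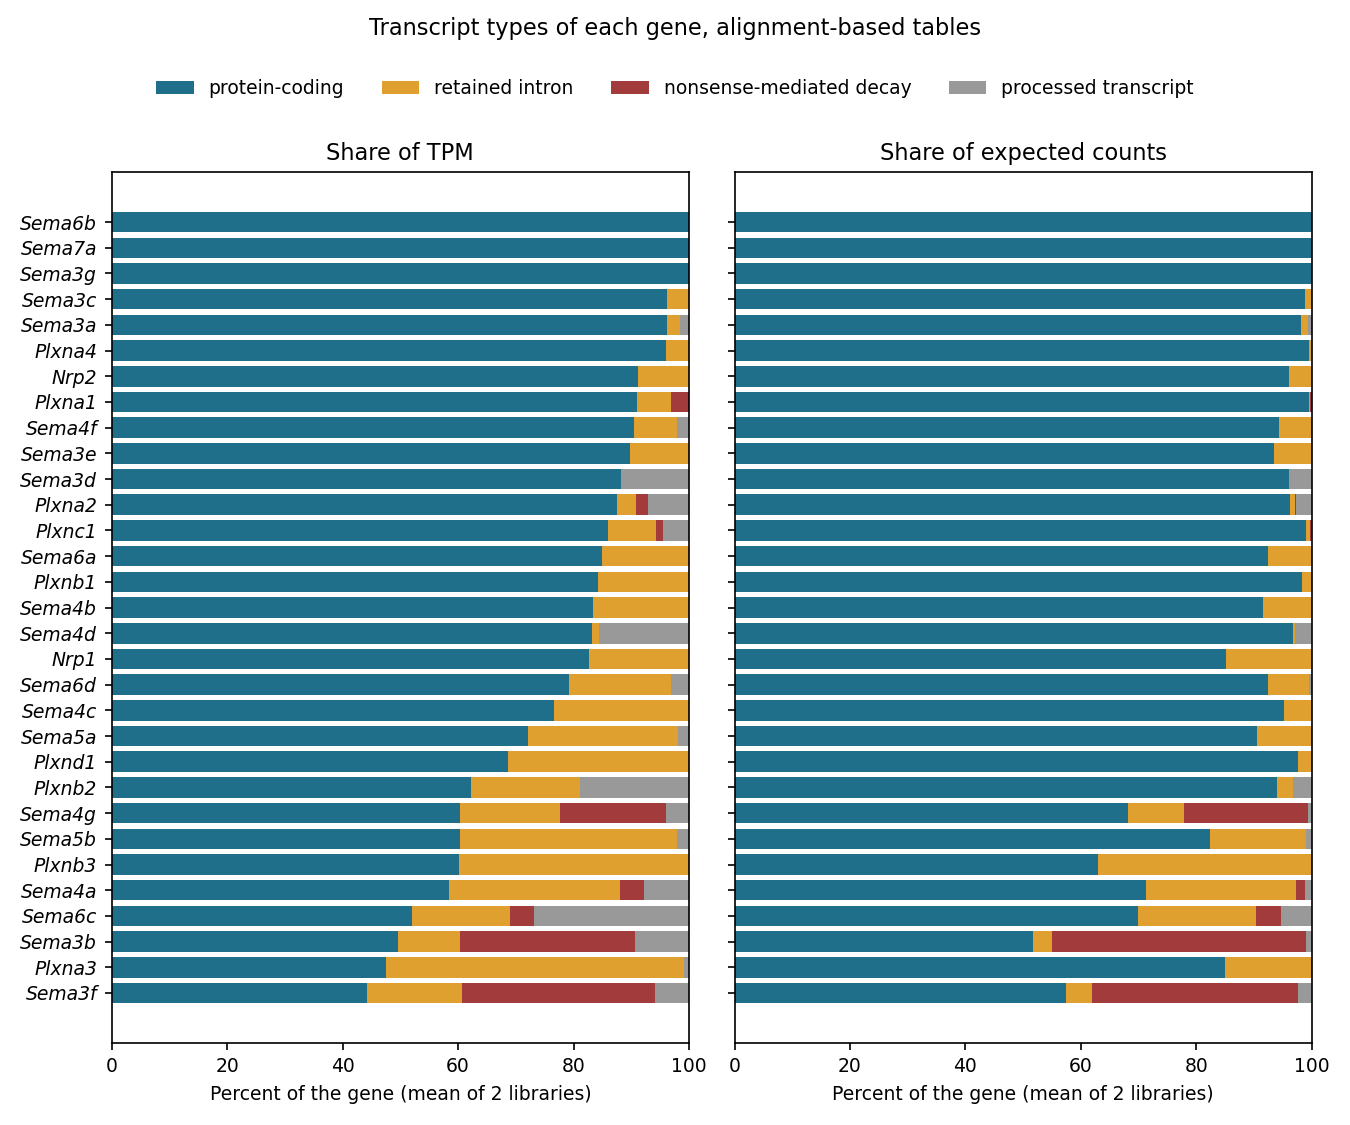
Share of each gene held by transcripts annotated as protein-coding, with a retained intron, as targets of nonsense-mediated decay or as processed transcripts, as percent of TPM (left) and of expected counts (right), mean of 2 libraries. Plxna3 and Plxnd1 are mostly coding by counts (84.9% and 97.6%) but much less so by TPM, while Sema3f, Sema3b and Plxnb3 have the 3 lowest coding shares by counts.

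Partners of the pathway outside the 3 families were also measured. Of 15 co-receptors and other ligands, 11 were at 1 TPM or more in both libraries, with a median of 4.98 and 4.70 TPM. The highest were the adhesion molecules Nrcam (232 and 221 TPM), L1cam (77.3 and 68.7 TPM) and Chl1 (55.9 and 52.0 TPM), which serve as neuropilin partners in the response to class 3 semaphorins, and Timd2, an immune receptor of Sema4a, had 0 counts in both libraries. All 17 plexin effectors and exchange factors were detected, with a median of 27.6 and 27.7 TPM, led by the GTPase Rac1 (153 and 147 TPM), the Ras relative Mras (73.7 and 70.9 TPM) and Arhgef12 (73.7 and 69.1 TPM), an exchange factor bound by class B plexins. Farp2, an exchange factor bound by class A plexins, was the lowest at 4.86 and 5.01 TPM. All 15 genes of cytoskeletal and kinase output were detected, with a median of 57.1 and 50.6 TPM, led by the actin-severing protein Cfl1 (607 and 554 TPM), Dpysl2 (285 and 283 TPM), which carries the Sema3a signal to microtubules, and the actin-oxidising enzyme Mical2 (277 and 279 TPM). The kinase Fes was the lowest at 2.53 and 2.25 TPM. Of these 3 lists, 0 genes lay beyond the lower limit between the libraries. A mean count of at least 10 was reached by 13 of the 15 co-receptors and by all effectors and output genes. The interval excluded equality in 3 of these 13 co-receptors (Ptprz1 higher, Itgb1 and Itga1 lower in replicate 2). It did so in 5 of 17 effectors (all higher) and in 5 of 15 output genes (4 higher, Cfl1 lower). The share over all genes with that count was the 15.1% given above, and nothing particular to these lists was tested.

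The order of levels held in broad terms when the read-based tables replaced the alignment-based ones. There the 31 genes were again all at 1 TPM or more, Sema7a (103 and 102 TPM) and Sema6b (85.9 and 88.7 TPM) led, and the largest shift in rank was 7 places, for Sema4c. Plxnd1 went from rank 2 to rank 4 by mean level, at 73.0 and 65.8 TPM, and was below Plxna2 (65.7 and 67.5 TPM) in replicate 2. Read-based TPM stood above alignment-based TPM for protein-coding genes at large, with a median ratio of 1.59. Against that, Sema4c had a ratio of 2.47 and Sema4a of 2.34, and Plxnb2 was lowest at 1.15. The levels of Sema4c and Sema4a relative to other genes thus depended on the table more than those of most members.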

How the data were processed

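The authors deposited, for each library, a gene table and a transcript table with expected counts, TPM and the percent of each gene's TPM per transcript, derived from alignments (per the file headers and file lists), and a read-based transcript table with estimated counts and TPM, on mm10 with GENCODE M21. The tools for alignment and quantification and the strand setting were not given in the sources used here. Reads of CAST/EiJ alleles were counted against the C57BL/6J reference.

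Expected counts were rounded. Scaling used TMM in edgeR 4.0.16 (R 4.3.3), with DESeq2 1.42.0 size factors and spike-in counts as alternatives and a minimum mean count of 10. Replicate 2 was 1.01 times replicate 1 by TMM. Ratios used a prior count of 0.5, with exact 95% intervals from SciPy 1.17.1. The interval rule was tested on simulated data. Calls used limits of 2-fold and 1.25-fold. With 1 group, no p-value was computed. Transcript shares were recomputed from deposited TPM and counts. Sequences were read from the GENCODE M21 transcript sequences, with coding exons placed by their mm10 coordinates.

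Members, lists and tests were chosen with earlier results of these data known. Every member is given with its values. Of each partner list the 3 highest genes, the lowest and those past 1.25-fold are named, of each marker list the highest and lowest, and leading transcripts for members at 10 TPM or more or with differing leads. Genes whose interval excluded equality and transcripts with variable segments were named after their values were seen. Counts of 29 of the 31 genes were whole numbers in both libraries to within 0.005.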

Additional observations from a re-analysis of the deposited data

How the results depend on the processing

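The count of 0 members beyond 2-fold or the lower limit (a log2 ratio of 0.32) held under DESeq2 size factors, spike-in scaling and read-based counts. A prior count of 2 could not change it, since the intervals do not use the prior. Removing the count minimum could not either, since the lowest mean count of a member was 77.5. A minimum of 100 only left out Sema3b. The count became 2 beyond the lower limit by the ratio of deposited TPM (Sema3a, Sema3f). For an interval that merely excluded equality, an alternative chosen after the data were seen, it became 8. Over all genes, 223 lay beyond the lower limit, 395 by TPM ratio, 340 without a count minimum and 79 at 100 counts or more. Beyond 2-fold the numbers were 57, and 86 without a minimum and 12 at 100 counts or more. Median levels were higher under read-based TPM, under TPM rescaled to protein-coding genes and under counts per kb of the longest coding transcript: from 9.42 to 16.1, 19.6 and 20.02 for semaphorins, from 27.2 to 43.2, 56.8 and 53.6 for plexins and from 14.0 to 21.3, 29.1 and 36.1 for neuropilins. The order of the 3 medians was kept under read-based TPM and under counts per kb. Rescaling to protein-coding genes multiplies every gene of a library by the same factor, so it could not change that order. The cause of the read-based shift was not tested. Plexin shares moved to 48.1% (read-based) and 51.1% (counts per kb) for class A, 23.1% and 18.7% for class B, 9.73% and 9.84% for class C and 19.1% and 20.4% for class D. The median coding share moved from 82.9% to 79.0% (read-based) and 94.3% (counts). Leaving out each replicate gave medians of 8.95 to 9.90, 26.7 to 27.8 and 13.7 to 14.3 TPM for semaphorins, plexins and neuropilins. No paired analysis was possible because the series has 1 group. Depth did not limit detection of any member, the lowest having 69 counts, but Sema3b, Sema3d, Sema3g and Plxnb3 rested on 69 to 454 counts.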
